A study of Mus musculus with 25 samples.

Results

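The cornified envelope genes described here are 10 genes of the outer layers of skin and other stratified epithelia: Sprr1a, Sprr1b, Sprr3, Crct1, Lce1a1, Lce1c, Krtdap, Sbsn, Tgm1 and Cdsn. They were listed by name, with earlier results of these arrays in view, and each was read as the probe set of its symbol with the highest mean over the 25 arrays. All 10 were found among the 19937 genes measured by a probe set with a single gene symbol, and each had 1 such probe set. Because the members were picked with their values known, their levels and differences are given as a description and not as a test.

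The cornified envelope is the shell of cross-linked protein and lipid that replaces the plasma membrane of keratinocytes as they die and form a barrier. Small proline-rich proteins (the Sprr genes) and late cornified envelope proteins (the Lce genes) are building blocks that transglutaminases such as Tgm1 join together, and corneodesmosin (Cdsn) holds neighbouring cornified cells to each other. The mammary ducts are lined by luminal and basal cells that do not normally cornify, whereas the skin over the gland, the nipple canal and squamous areas of mammary tumors do.

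The arrays are labelled as 10 mammary tumors of K8-creERT2/PIK3CA H1047R mice on a mixed FVB/CD1 background (K8 tumors), 2 mammary glands of K8-creERT2 ctrl mice on the same background (K8 glands), 10 mammary tumors of Lgr5-creERT2/PIK3CA H1047R mice on a mixed FVB/C57/BL6 background (Lgr5 tumors) and 3 mammary glands of Lgr5-creERT2 ctrl mice on that background (Lgr5 glands). All 4 groups carry a tamoxifen-inducible Cre, driven by the keratin 8 gene in luminal cells or by the Lgr5 gene, and the tumor groups also carry the mutant PI3-kinase subunit PIK3CA H1047R that Cre turns on. Tamoxifen was given to adults of 7 to 8 weeks, and the sources used here give neither the age at collection nor whether the ctrl mice were also injected. Line and background go together. No label says that the tumors came from different mice, so the p-values below cover the variation among these samples alone, part of which may be technical.

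Marker genes of fat and squamous tissue went against the labels in tumor and gland arrays, so each group is named only by its label. The mean of 14 adipocyte genes was between 7.97 and 11.35 (log2) in the K8 tumors and between 9.59 and 12.78 in the Lgr5 tumors, against 7.82 and 8.69 in the 2 K8 glands and 7.62 to 9.67 in the 3 Lgr5 glands, a tissue embedded in fat. The highest adipocyte means were those of Lgr5 tumors 2, 6, 7, 8 and 9, and every gland lay below these 5 tumors. The mean of 12 suprabasal and stress keratins was in turn 8.27 and 8.32 in the K8 glands and 7.24 to 8.57 in the Lgr5 glands, where mammary ducts do not normally cornify. Each tumor minus gland direction below is therefore one between sets of labelled arrays, and it holds for tumor and gland only as far as those labels do. Results are therefore given with and without these 5 arrays, and with and without K8 tumor 9 and Lgr5 tumor 10, in which squamous genes were high. The array medians lay between 6.34 and 6.43, and the number of arrays limits the precision.

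RefSeq promoter windows of 300 bases (250 before the start site and 50 after it, GRCm38.p6) were at hand for 9 of the 10 members, as 11 windows because Tgm1 and Cdsn had 2 each. They are shown for the 4 members whose windows hold a match to TGANTCA, Sprr1a and Sprr1b on chromosome 3 and Sbsn and Krtdap on chromosome 7, and for Sprr3, which lies between the first pair and hardly varied. All are on the gene's own strand, 5′ to 3′. Capitals mark each match to TGANTCA, a loose search pattern for AP-1 (Fos and Jun dimers) that allows any middle base, or to TATAAA, the TATA box. Binding was not tested. The windows are chr3:92485832-92486131 (minus strand) for Sprr1a, chr3:92438730-92439029 (minus strand) for Sprr1b, chr3:92458671-92458970 (minus strand) for Sprr3, chr7:30787655-30787954 (plus strand) for Krtdap and chr7:30751221-30751520 (plus strand) for Sbsn.
Sprr1a: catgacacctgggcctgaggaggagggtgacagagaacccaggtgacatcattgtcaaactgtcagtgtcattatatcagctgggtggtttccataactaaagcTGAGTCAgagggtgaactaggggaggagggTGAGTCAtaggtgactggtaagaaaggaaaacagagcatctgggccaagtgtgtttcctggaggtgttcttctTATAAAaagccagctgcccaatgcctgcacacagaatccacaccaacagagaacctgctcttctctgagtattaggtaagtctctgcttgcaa
Sprr1b: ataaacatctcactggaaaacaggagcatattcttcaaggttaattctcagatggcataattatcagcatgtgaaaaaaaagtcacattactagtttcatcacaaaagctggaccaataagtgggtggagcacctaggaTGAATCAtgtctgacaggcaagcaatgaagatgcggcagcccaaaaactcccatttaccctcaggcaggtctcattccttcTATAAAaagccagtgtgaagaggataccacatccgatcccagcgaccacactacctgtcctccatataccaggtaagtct
Sprr3: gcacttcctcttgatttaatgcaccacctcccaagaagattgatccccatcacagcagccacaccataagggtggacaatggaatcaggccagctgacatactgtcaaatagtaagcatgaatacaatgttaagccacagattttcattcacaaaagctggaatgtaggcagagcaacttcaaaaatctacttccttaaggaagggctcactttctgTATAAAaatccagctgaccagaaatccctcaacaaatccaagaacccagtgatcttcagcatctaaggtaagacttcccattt
Krtdap: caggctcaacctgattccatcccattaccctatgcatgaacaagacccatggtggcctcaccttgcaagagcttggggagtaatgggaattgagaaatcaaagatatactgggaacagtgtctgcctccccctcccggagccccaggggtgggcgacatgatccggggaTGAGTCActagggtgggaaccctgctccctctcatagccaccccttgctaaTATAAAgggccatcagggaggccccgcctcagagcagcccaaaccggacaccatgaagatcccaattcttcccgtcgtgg
Sbsn: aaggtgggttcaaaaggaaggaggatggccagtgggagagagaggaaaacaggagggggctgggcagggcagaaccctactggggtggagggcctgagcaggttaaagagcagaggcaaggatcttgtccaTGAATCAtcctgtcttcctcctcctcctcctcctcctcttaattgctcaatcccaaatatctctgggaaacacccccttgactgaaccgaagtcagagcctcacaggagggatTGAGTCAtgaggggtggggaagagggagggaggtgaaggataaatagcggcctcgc

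Searched on both strands, TGANTCA was present in 4 of the 11 windows, those of Sprr1a, Sprr1b, Krtdap and Sbsn, and in 7.81% of 32851 RefSeq promoter windows of the same length. In Sprr1a the 2 matches, both TGAGTCA, begin 146 and 116 bases before the start site, and in Sprr1b the match, TGAATCA, begins 111 bases before it. In Krtdap the match, TGAGTCA, begins 81 bases before the start site, and in Sbsn the matches begin 119 (TGAATCA) and 6 (TGAGTCA) bases before it. TATAAA was present in 4 windows, those of Sprr1a, Sprr1b, Sprr3 and Krtdap, and in 13.6% of all windows. The match begins 43 bases before the start site in Sprr1a, 30 in Sprr1b, 33 in Sprr3 and 30 in Krtdap, and no match to one motif overlaps a match to the other. AACCNGTT, the letters bound by grainyhead-like factors, was in 0 of the 11 windows and in 2.09% of all windows. Between the 7 members with a single window, identity over a gapped global alignment ran from 44.6% to 63.3% (median 51.0% over 21 pairs). The most alike windows were those of Lce1a1 and Lce1c at 63.3%, and Sprr1a and Sprr1b were at 56.3%.

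Most members were either high or low in an array. The 5 glands, K8 tumor 9 and Lgr5 tumor 10 were high for most members, and the other 18 tumors were low for most. The mean of the 10 log2 values was 9.38 in K8 tumor 9 and 9.47 in Lgr5 tumor 10, between 6.13 and 7.84 in the other 18 tumors, and 9.49, 10.15, 10.18, 8.31 and 9.76 in the glands (K8 glands 1 and 2, then Lgr5 glands 1, 2 and 3). In 8 of the 10 members both of those tumors lay within the range of the glands, the exceptions being Sprr1b and Sprr3. That range often reached down through Lgr5 gland 2 alone. Both tumors for Lce1a1 and Lce1c, Lgr5 tumor 10 for Sbsn and K8 tumor 9 for Tgm1 lay below every other gland. The 8 was not set beside all genes, so nothing is read from it. In 5 members (Sprr1b, Lce1a1, Lce1c, Sbsn and Tgm1) all 18 other tumors lay below all 5 glands, as did 3.92% of all genes. K8 tumor 9 and Lgr5 tumor 10 were left out of that count because these genes were high there, so nothing is read from it. In bulk tissue, fewer cells of a type and less RNA per cell cannot be told apart.

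**Figure D1:**
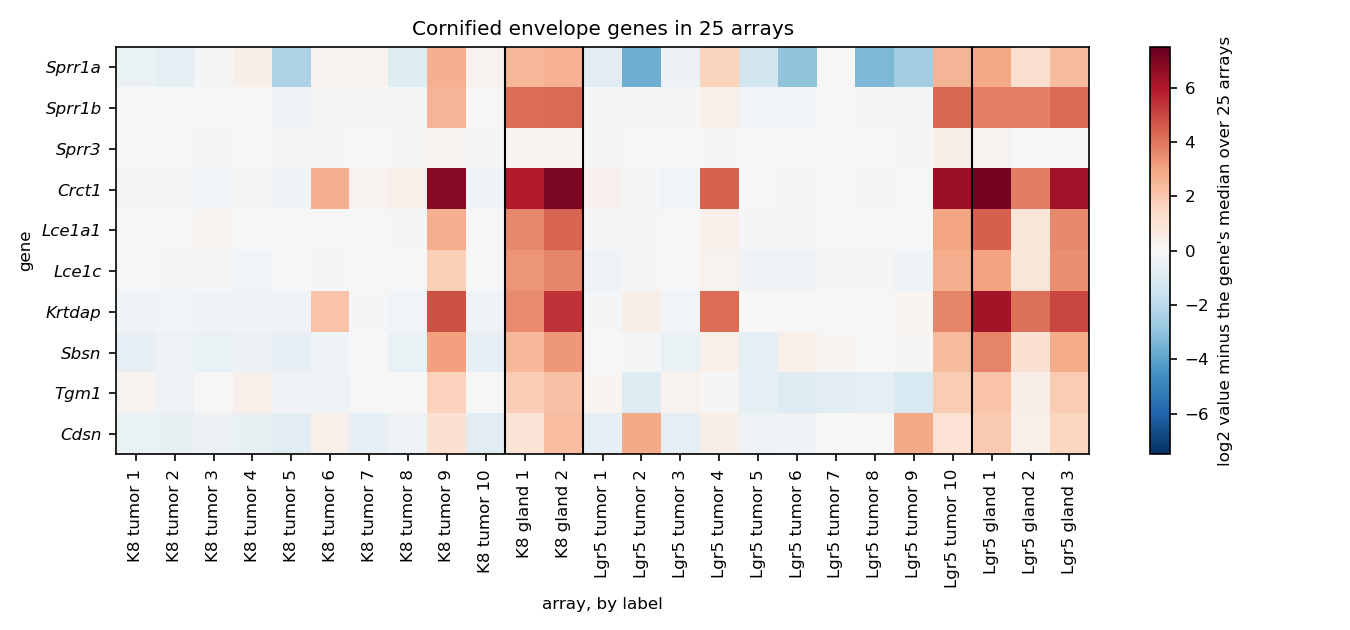
Log2 value of each cornified envelope gene (rows) in each of the 25 arrays (columns, grouped by label and divided by black lines), coloured by the difference from that gene's median over the 25 arrays. The glands, K8 tumor 9 and Lgr5 tumor 10 are red for most genes, Sprr3 is near white throughout, and Cdsn is also red in Lgr5 tumors 2 and 9.

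Sprr1a and Sprr1b are small proline-rich precursors that are cross-linked into the envelope. Sprr1a was the member with the widest spread among tumors other than K8 tumor 9 and Lgr5 tumor 10. It had a lowest value of 8.01, a median of 10.37 and a highest of 13.02 in the K8 tumors, against 12.82 and 12.91 in the K8 glands. It had 6.66, 9.22 and 12.87 in the Lgr5 tumors, against 13.16, 11.56 and 12.68 in the Lgr5 glands. The 4 lowest values were those of Lgr5 tumors 2, 8, 6 and 9 (6.66, 6.94, 7.29 and 7.72), all with high adipocyte genes, but Lgr5 tumor 7, where adipocyte genes were also high, had 10.33. Sprr1b was low and even in the tumors outside K8 tumor 9 and Lgr5 tumor 10, where it lay between 5.62 and 6.28. It was 8.43 in K8 tumor 9 against 10.06 and 10.17 in the K8 glands, and 10.23 in Lgr5 tumor 10 against 9.70, 9.67 and 10.15 in the Lgr5 glands. Sprr3, a precursor best known from the oesophagus, stayed between 5.31 and 5.82 on all arrays, below the array median on all 25, and its highest value was in Lgr5 tumor 10.

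Lce1a1 and Lce1c encode late cornified envelope proteins, made in the last steps of cornification, and Crct1 is a cysteine-rich gene of the same chromosome 3 cluster. Lce1a1 had a lowest value of 5.30, a median of 5.36 and a highest of 8.11 in the K8 tumors, against 9.00 and 9.72 in the K8 glands. It had 5.23, 5.32 and 8.32 in the Lgr5 tumors, against 9.83, 6.29 and 8.98 in the Lgr5 glands. Lce1c ran from 5.32 through a median of 5.49 to 7.31 in the K8 tumors, against 8.82 and 9.18 in the K8 glands. In the Lgr5 tumors Lce1c ran from 5.17 through 5.41 to 8.21, against 8.52, 6.41 and 9.03 in the Lgr5 glands. Lgr5 gland 2 was thus the lowest gland for both Lce genes, although its Sprr1b value was like that of the other glands. Crct1 varied most of all members, over 7.53 log2 units. It had 5.24, 5.49 and 12.42 (lowest, median, highest) in the K8 tumors, against 11.54 and 12.61 in the K8 glands, and 5.38, 5.56 and 11.98 in the Lgr5 tumors, against 12.77, 9.42 and 11.85 in the Lgr5 glands. Crct1 also stood apart in 2 tumors whose Lce genes were low, at 8.24 in K8 tumor 6 and at 10.00 in Lgr5 tumor 4.

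Krtdap (a small secreted protein of differentiating keratinocytes) and Sbsn (suprabasin, a secreted protein of suprabasal cells) are near neighbours on chromosome 7. Krtdap had 5.23, 5.35 and 10.33 (lowest, median, highest) in the K8 tumors, against 9.14 and 10.98 in the K8 glands. It had 5.39, 5.60 and 9.77 in the Lgr5 tumors, against 11.84, 9.71 and 10.60 in the Lgr5 glands. The 9.77 was that of Lgr5 tumor 4, above the 9.25 of Lgr5 tumor 10, and K8 tumor 6 had 7.71. Sbsn had 6.64, 6.82 and 10.35 in the K8 tumors, against 9.76 and 10.52 in the K8 glands. It had 6.63, 7.33 and 9.63 in the Lgr5 tumors, against 10.91, 8.42 and 10.06 in the Lgr5 glands. Sbsn was 7.64 in Lgr5 tumor 4 and 6.98 in K8 tumor 6, so that those 2 tumors were high for Krtdap and within the range of the other tumors for Sbsn.

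Tgm1, the transglutaminase that joins envelope proteins at the membrane, had 7.58, 7.96 and 9.73 (lowest, median, highest) in the K8 tumors, against 9.83 and 10.19 in the K8 glands. It had 6.87, 7.28 and 9.92 in the Lgr5 tumors, against 10.10, 8.51 and 9.89 in the Lgr5 glands. Its 5 lowest values were those of the 5 Lgr5 tumors with high adipocyte genes, between 6.87 and 7.23. Cdsn, the adhesive protein of cornified cell junctions, departed most from the shared pattern. It had 6.56, 6.83 and 8.51 in the K8 tumors, against 8.33 and 9.63 in the K8 glands. It had 6.64, 7.37 and 10.21 in the Lgr5 tumors, against 9.30, 7.75 and 8.93 in the Lgr5 glands. Lgr5 tumors 2 and 9, at 10.21 and 10.17, were above every gland for Cdsn, while their Crct1 values were 5.51 and 5.58 and their Lce1a1 values 5.29 and 5.33. The gene next to Cdsn in RefSeq, Psors1c2, was at 5.43 and 5.53 in these 2 tumors, against a median of 5.51 over the 25 arrays.

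**Figure D2:**
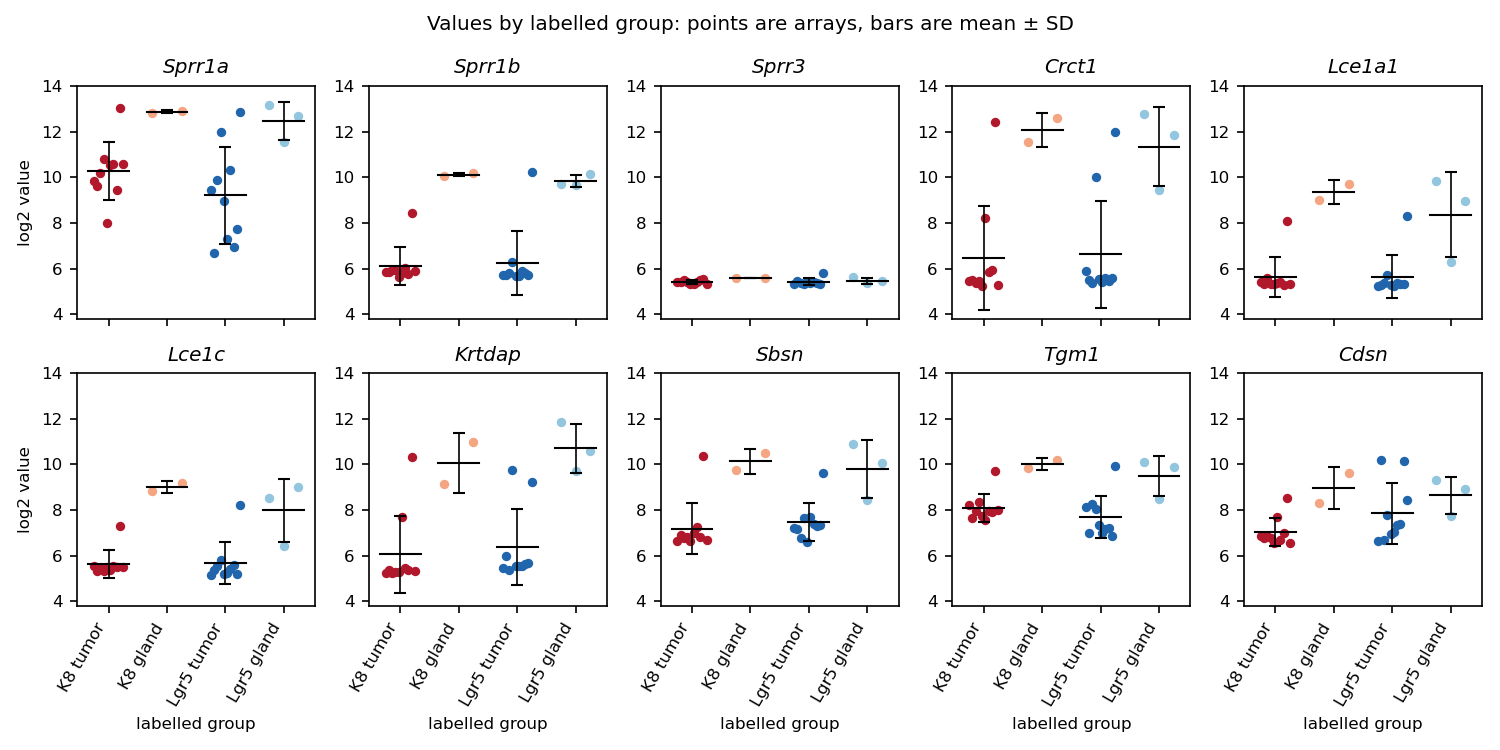
Log2 value of each cornified envelope gene (1 panel a gene) in the 4 labelled groups. Each point is an array, the horizontal line is the group mean and the bar is ± SD (10 K8 tumors, 2 K8 glands, 10 Lgr5 tumors, 3 Lgr5 glands). The single high tumor points in most panels are K8 tumor 9 and Lgr5 tumor 10, and the 2 high Lgr5 tumor points of Cdsn are Lgr5 tumors 2 and 9.

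The difference between each tumor group and the glands of its line was fitted with limma on all 19937 genes in all 25 arrays (4 group means, Benjamini-Hochberg adjustment over all genes, threshold 0.05). In K8 tumors 7 members were lower than in K8 glands and 3 did not pass, beside 5.69% of all genes called lower. In Lgr5 tumors 8 members were lower than in Lgr5 glands and 2 did not pass, beside 10.6% of all genes called lower and 5.28% called higher. The members were chosen with these differences in view, so nothing is read from the counts. The median log2 difference of the 10 members was -3.15 for K8 and -2.52 for Lgr5, beside a median of -0.01 over all genes in both.

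Among the precursors the K8 and Lgr5 log2 differences, each with its SE, were -5.60 ± 1.66 and -4.72 ± 1.41 for Crct1. They were -4.01 ± 0.80 and -3.58 ± 0.68 for Sprr1b, and -2.60 ± 1.23 and -3.26 ± 1.04 for Sprr1a, which did not pass in K8. For the Lce genes they were -3.71 ± 0.77 and -2.71 ± 0.65 (Lce1a1) and -3.36 ± 0.63 and -2.31 ± 0.53 (Lce1c). Sprr3 differed by -0.17 ± 0.09 and -0.05 ± 0.08 and passed in neither. For the secreted proteins they were -3.99 ± 1.20 and -4.33 ± 1.02 (Krtdap) and -2.95 ± 0.75 and -2.32 ± 0.64 (Sbsn). Tgm1 differed by -1.90 ± 0.59 and -1.80 ± 0.50, and Cdsn by -1.94 ± 0.76 and -0.79 ± 0.64, passing in neither. Crct1 and Krtdap lay below the array median in 8 of 10 tumors of each line, and Sprr1b, Lce1a1 and Lce1c in 9 of 10. No detection calls were used, so these low values are given as measured.

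These counts depended on few arrays. Without K8 tumor 9 and Lgr5 tumor 10, 9 members were called lower in K8 tumors (19.9% of all genes called) and 8 in Lgr5 tumors (27%). Those 2 arrays were left out because squamous genes, these members among them, were high there, so a smaller spread follows from the choice: the SE of Sprr1b was then 0.13 in K8 and 0.11 in Lgr5. Without the 5 Lgr5 tumors with high adipocyte genes, 7 members were called in K8 (12.8% of all genes) and 0 in Lgr5 (8 at an unadjusted p under 0.05), where limma then called 0.00502% of all genes and the Crct1 log2 difference was -3.59 ± 1.65. Without all 7 arrays, 10 members were called in K8 (26.8% of all genes) and 9 in Lgr5 (18%). The glands weighed as much: without K8 gland 1 or K8 gland 2, 0 members were called in K8 tumors (0.15% and 0.376% of all genes by limma), with 8 and 6 members at an unadjusted p under 0.05. Without Lgr5 gland 1 or Lgr5 gland 3, 1 member, Sprr1b each time, was called in Lgr5 tumors (1.26% and 3.54%). For Cdsn, leaving out Lgr5 tumors 2 and 9, an alternative added after their values were seen, moved the Lgr5 log2 difference to -1.37.

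**Figure D3:**
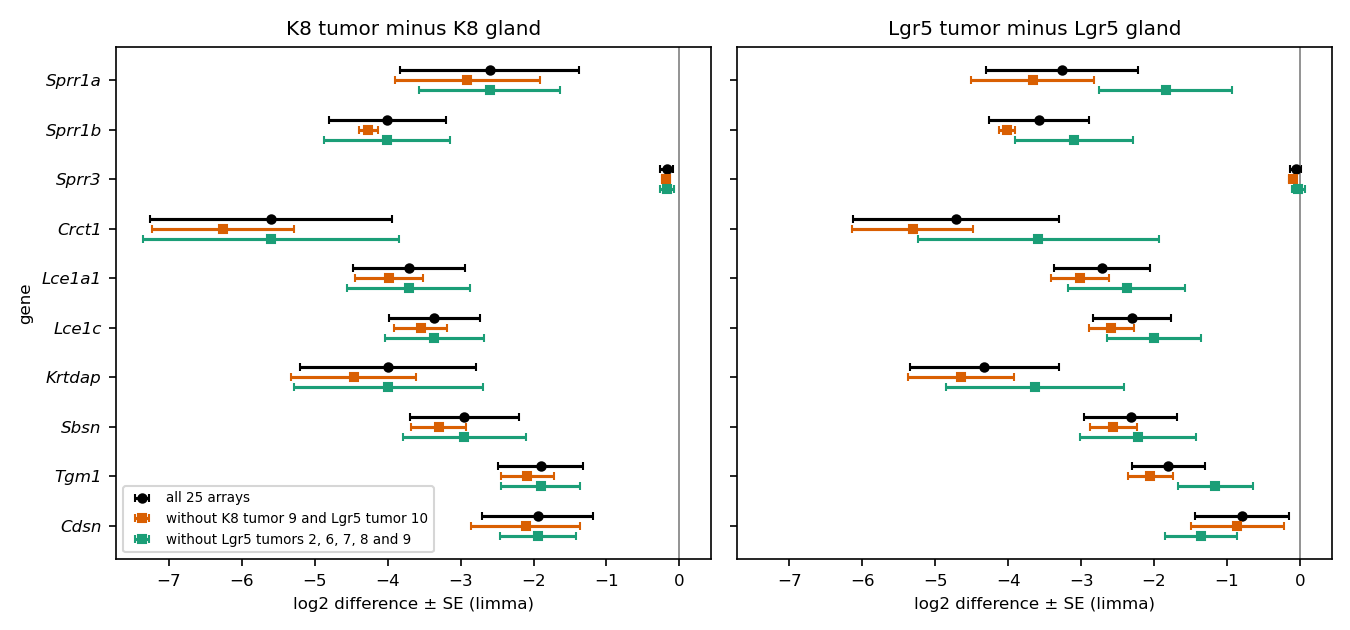
Log2 difference ± SE (limma) of each cornified envelope gene for K8 tumor minus K8 gland (left) and Lgr5 tumor minus Lgr5 gland (right), from all 25 arrays (black), without K8 tumor 9 and Lgr5 tumor 10 (orange) and without Lgr5 tumors 2, 6, 7, 8 and 9 (green). All values drawn are below 0, Crct1 is the lowest in the K8 panel, and Sprr3 lies at the zero line.

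Between the K8 and the Lgr5 tumors, limma called 0 members at an adjusted p of 0.05 and 0 at an unadjusted p of 0.05, while it called 12.3% of all genes higher and 9% lower in K8 tumors. The largest member differences were 1.05 ± 0.71 for Sprr1a (limma adjusted p = 0.306) and -0.83 ± 0.44 for Cdsn (adjusted p = 0.179). The sign of the Sprr1a difference rested on the Lgr5 tumors with high adipocyte genes: without those 5 arrays it was -0.37. The Cdsn difference was -0.25 without Lgr5 tumors 2 and 9. Between the K8 and the Lgr5 glands, 0 members were called (0% of all genes, and 319 genes at an unadjusted p of 0.05), with log2 differences between -0.66 ± 1.42 for Krtdap and 1.02 ± 0.74 for Lce1c. The difference between the K8 and the Lgr5 tumor minus gland contrasts was called for 0 members (0% of all genes, 883 genes at an unadjusted p of 0.05), and ranged from -1.15 ± 1.00 for Cdsn to 0.66 ± 1.61 for Sprr1a. With 2 and 3 glands these SEs leave room for differences of several-fold.

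The other genes of cornification were counted from 5 lists, also written with earlier results of these arrays known, of which 76 of 86 genes were measured. In K8 tumors 43 of the 76 were called lower than in K8 glands and 0 higher, beside 5.69% of all genes called lower. In Lgr5 tumors 37 were called lower and 2 higher than in Lgr5 glands, beside 10.6% and 5.28% of all genes. The median log2 difference of the 76 was -1.18 in K8 and -1.09 in Lgr5, against -0.01 over all genes. As for the members, the limma count in Lgr5 was 0 without the 5 Lgr5 tumors with high adipocyte genes (38 at an unadjusted p under 0.05). It was 2 without Lgr5 gland 1 (Cebpb and Sprr2k) and 5 without Lgr5 gland 3 (Cebpb, Sprr2g, Sprr2i, Sprr2j-ps and Sprr2k). The K8 count was 2 without K8 gland 1 (Lce1b and Lce3e) and 3 without K8 gland 2 (Lce1d, Sprr2i and Sprr2j-ps). In the same order, limma called 0.00502%, 1.26% and 3.54% of all genes in Lgr5, and 0.15% and 0.376% in K8.

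In the counts of single lists, fell and rose stand for called lower and called higher. Beside these counts, 5.69% of all genes were called lower in K8 and 10.6% in Lgr5 tumors. Of 10 further Sprr genes, which neighbour Sprr1a, 6 fell in K8 tumors and 8 in Lgr5 tumors. Sprr2b fell by 2.96 ± 0.46 on the log2 scale in K8 (limma adjusted p = 0.00432) and fell by 1.96 ± 0.39 in Lgr5 (0.00843). Sprr2e fell by 2.58 ± 0.55 in K8 (0.0129), and Sprr2d fell by 2.80 ± 0.67 in Lgr5 (0.0129). The smallest adjusted p of the 10 in Lgr5 was that of Sprr2k (0.00473), which fell by only 0.23 ± 0.04, and Sprr2j-ps fell by 0.25 ± 0.05 in K8 (0.00828) and fell by 0.18 ± 0.04 in Lgr5 (0.0103). Group means of Sprr2k and Sprr2j-ps lay between 5.24 and 5.76, below every array median (6.34 to 6.43). Of 17 further Lce genes, 14 fell in K8 and 10 in Lgr5 tumors. Lce3c fell by 3.31 ± 0.58 in K8 (adjusted p = 0.00787) and fell by 2.39 ± 0.50 in Lgr5 (0.00923). Lce3e fell by 2.68 ± 0.43 in K8 (0.00475) and fell by 1.76 ± 0.37 in Lgr5 (0.00938). The Sprr2 genes, and the Lce genes within a subfamily, are related in sequence. Whether their probe sets share signal was not tested, so single genes of these families are uncertain. Sprr2i, Lce1f, Lce1g and Lce3f, called in both lines, also had all group means below every array median. So did Lce1b, Lce1d, Lce1i and Lce1l, called in K8, and Sprr2g, called in Lgr5. No detection calls were used, so whether such genes were detected was not tested. In Lgr5 gland 2, Sprr2d was 6.47, Lce3c 6.81 and Krt1 5.87, against at least 9.25, 9.19 and 8.50 in the other 4 glands.

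Of 14 other scaffold and junction genes, 9 fell in K8 tumors and 4 (Ivl, Cnfn, Dmkn and Dsg1b) in Lgr5 tumors. Beside this count and the next, 5.69% of all genes were called lower in K8 and 10.6% in Lgr5 tumors. Ivl encodes involucrin, an early scaffold of the envelope, and it fell by 4.02 ± 1.06 in K8 (limma adjusted p = 0.0249) and fell by 3.16 ± 0.90 in Lgr5 (0.0238). Dmkn, a secreted protein gene that lies between Sbsn and Krtdap, fell by 4.02 ± 1.00 in K8 (0.0203) and fell by 3.36 ± 0.85 in Lgr5 (0.0156). Hrnr (hornerin) fell by 3.73 ± 0.99 in K8 (0.0253) and differed by -2.42 ± 0.84 in Lgr5 (0.0519). Of 18 genes for enzymes, their inhibitors and barrier lipids, 11 fell in K8 and 8 in Lgr5 tumors. Alox12b, a lipoxygenase of barrier lipids, had the smallest adjusted p of these 18 in both lines and fell by 0.46 ± 0.09 in K8 (limma adjusted p = 0.00828) and fell by 0.34 ± 0.07 in Lgr5 (0.00962). Its means were 5.42 and 5.88 in K8 tumors and glands and 5.42 and 5.76 in Lgr5, all below every array median. Abca12, a lipid transporter of keratinocytes, fell by 2.58 ± 0.66 in K8 (0.0227), and Asprv1, a skin protease that processes filaggrin, fell by 3.83 ± 1.13 in Lgr5 (0.0279).

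Of 17 regulators of cornification, 3 fell in K8 tumors (Grhl3, Ovol1 and Klf4), and in Lgr5 tumors 7 fell while Maf and Cebpa rose. Of all genes, 5.69% were called lower in K8 tumors, and 10.6% lower and 5.28% higher in Lgr5 tumors. Grhl3, a grainyhead-like factor needed for the skin barrier, fell by 2.32 ± 0.59 in K8 (limma adjusted p = 0.0228) and fell by 1.87 ± 0.50 in Lgr5 (0.0195). Klf4, a zinc-finger factor of barrier formation, fell by 1.94 ± 0.61 in K8 (0.0497). Cebpb fell by 0.92 ± 0.20 in Lgr5 (0.00977), and Maf rose by 0.95 ± 0.25 there (0.0177). Cebpa is also a factor of adipocytes. Between K8 and Lgr5 tumors, 6 of the 76 genes were called, Lipm, Trp63, Fos and Vdr higher and Maf and Cebpa lower in K8 tumors, where 12.3% of all genes were called higher and 9% lower. Lipm, a lipase of differentiating keratinocytes, was 2.03 ± 0.64 higher (adjusted p = 0.0301) and Cebpa 1.09 ± 0.34 lower (0.0295) on the log2 scale, and without the 5 Lgr5 tumors with high adipocyte genes limma called 0 of the 76 (0 also at an unadjusted p under 0.05). Without those 5 arrays limma also called 0% of all genes. Leaving out any 1 of these 5 arrays left 1 gene called, Fos each time, beside 11.5% to 14.2% of all genes in either direction. Leaving out Lgr5 tumor 10 gave 12, beside 27.2% of all genes. Between the glands 0 of the 76 were called by limma and 3 had an unadjusted p under 0.05, Lce1b, Lce1d and Lce1i, with K8 minus Lgr5 log2 differences of 0.36, 0.45 and 0.37.

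Most members lie beside other genes of the same kind. In RefSeq (GRCm38.p6) the 6 members from Sprr1b to Crct1 lie on chromosome 3 within a run of 29 coding genes, of which 27 were measured. Of the 21 that are not members, 16 were lower in K8 tumors and 11 in Lgr5 tumors, and 20 of these 21 are in the lists above, so this count is not separate from theirs. Of the 10 measured genes before the run 6 were lower in each line, and of the 10 after it 4 were lower in K8 and 0 in Lgr5, beside 5.69% and 10.6% of all genes called lower. Of these, 9 of the 10 genes before and 5 of the 10 after are also in the lists, so their counts repeat the list counts too. On chromosome 7, Dmkn was low with its neighbours Sbsn and Krtdap, while the genes on the outer sides, Gapdhs (log2 difference -0.07 in K8 and -0.03 in Lgr5) and Ffar2 (0.02 and 1.15), were not called.

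Across the 25 arrays the log2 values of 8 members (all but Cdsn and Sprr3) correlated with Pearson's r between 0.73 and 0.98, with a median of 0.90 over 28 pairs. The arrays fall into a high and a low set, so these values describe that split. Among the 18 tumors outside K8 tumor 9 and Lgr5 tumor 10, the same pairs ranged from -0.46 to 0.98 with a median of 0.43. Over the 25 arrays, pairs with Cdsn had r between 0.21 and 0.63, and pairs with Sprr3 between 0.41 and 0.73. Among the 18 other tumors, pairs with Cdsn ranged from -0.65 to 0.38 (median 0.0037), and pairs with Sprr3 from -0.30 to 0.11 (median -0.0017). The genes most like the mean of the 10 standardised members over the 25 arrays were Il1f9 (r = 0.992), an epithelial interleukin-1 family cytokine, Krt16 (0.985), a stress keratin, Dmkn (0.985) and Grhl3 (0.984). Trex2, Fads2b, Ankrd22, Slc7a11, Acod1 and Asprv1 followed, with r between 0.980 and 0.983. Within the 18 other tumors r was 0.778 for Il1f9, 0.645 for Krt16, 0.733 for Dmkn, 0.584 for Grhl3 and 0.833 for Asprv1.

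The suprabasal keratin and neutrophil lists were high in the same arrays as the members, and the hair follicle list in part. Luminal, basal, sebaceous and adipocyte means were highest in other arrays. The mean of 12 suprabasal and stress keratins was 6.24 to 7.83 (log2) in K8 tumors and 6.02 to 8.33 in Lgr5 tumors, highest in K8 tumor 9 and Lgr5 tumor 10, against 8.27 and 8.32 in K8 glands and 7.24 to 8.57 in Lgr5 glands, and 7 of 12 were called lower in K8 and 5 of 12 in Lgr5 tumors. Krt1 and Krt10, the keratins of the spinous layer of skin, were 6.98 and 7.32 in K8 tumor 9 and 7.79 and 7.99 in Lgr5 tumor 10, against 8.99 to 9.49 (Krt1) and 8.51 to 8.59 (Krt10) in the K8 glands. In Lgr5 glands 1, 2 and 3 Krt1 was 8.50, 5.87 and 9.79, and Krt10 was 8.52, 6.28 and 9.14. Both tumors thus lay within the range of the 5 glands only through Lgr5 gland 2, and below every other gland. The medians of Krt1 were 5.94 in K8 tumors and 5.95 in Lgr5 tumors. The 5 keratins called lower in Lgr5 tumors were Krt1, Krt10, Krt16, Krt6a and Krt6b. Of all genes, 5.69% were called lower in K8 and 10.6% in Lgr5 tumors.

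The mean of 15 hair follicle genes was 5.82 to 6.95 in K8 tumors (highest in K8 tumor 9) and 5.72 to 8.90 in Lgr5 tumors (highest in Lgr5 tumor 10), against 7.13 and 8.66 in K8 glands and 6.17, 5.77 and 8.74 in Lgr5 glands 1, 2 and 3. The hair genes Krt71 and Krt25 were below the array median in 10 and 9 of 10 K8 tumors and in 9 and 9 of 10 Lgr5 tumors, against 0 of 2 K8 glands and 2 of 3 Lgr5 glands for both. In the 18 other tumors the hair mean was at most 6.00. Lgr5 gland 1 had a member mean of 10.18 with a hair mean of 6.17. Lgr5 gland 2 had a member mean of 8.31, with Lce1a1 at 6.29 and Lce1c at 6.41, and a hair mean of 5.77. Hair genes called lower numbered 6 of 15 in K8 and 0 of 15 in Lgr5 tumors (limma, with 1, Tchh, at an unadjusted p under 0.05). Of all genes, 5.69% were called lower in K8 and 10.6% in Lgr5 tumors.

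The mean of 13 neutrophil genes was 5.61 to 7.17 in K8 tumors and 5.66 to 8.03 in Lgr5 tumors, again highest in K8 tumor 9 and Lgr5 tumor 10, against 7.18 and 7.77 in K8 glands and 6.42 to 8.57 in Lgr5 glands. S100a8, a neutrophil alarmin that stressed keratinocytes also make, was 10.06 in K8 tumor 9, 10.98 in Lgr5 tumor 10 and at least 8.54 in the glands, and had medians of 6.08 in K8 and 6.10 in Lgr5 tumors. Neutrophil genes called lower numbered 4 of 13 in K8 (Cxcl2, Cxcr2, S100a8 and S100a9) and 7 of 13 in Lgr5 tumors. The mean of 13 luminal genes was 10.59 to 11.16 in K8 and 9.32 to 11.04 in Lgr5 tumors, against 10.57 to 10.61 in K8 and 10.55 to 10.77 in Lgr5 glands, and that of 11 basal genes 9.27 to 11.31 and 8.93 to 11.07, against 9.35 to 9.39 and 9.41 to 10.27. The mean of 6 sebaceous gland genes was 6.32 to 7.98 in K8 and 6.41 to 8.31 in Lgr5 tumors, against 6.85 and 7.00 in K8 and 6.72 to 7.27 in Lgr5 glands, with 0 of 6 called in K8 (limma, with 2, Fabp5 and Scd3, at an unadjusted p under 0.05) and 1 of 6, Scd3, called lower in Lgr5 tumors. Adipocyte genes called higher numbered 0 of 14 in K8 and 14 of 14 in Lgr5 tumors, and in K8 the log2 difference was negative for 0 of the 14. In K8 tumors 3 of 13 luminal and 5 of 11 basal genes were called higher and 0 lower. In Lgr5 tumors 1 luminal gene was called higher and 4 lower, and 0 basal genes were called higher and 2 lower. Of all genes, 3.42% were called higher and 5.69% lower in K8 tumors, and 5.28% higher and 10.6% lower in Lgr5 tumors. Apart from the arrays left out above, the part of these cell types in the member differences was not tested.

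**Figure D4:**
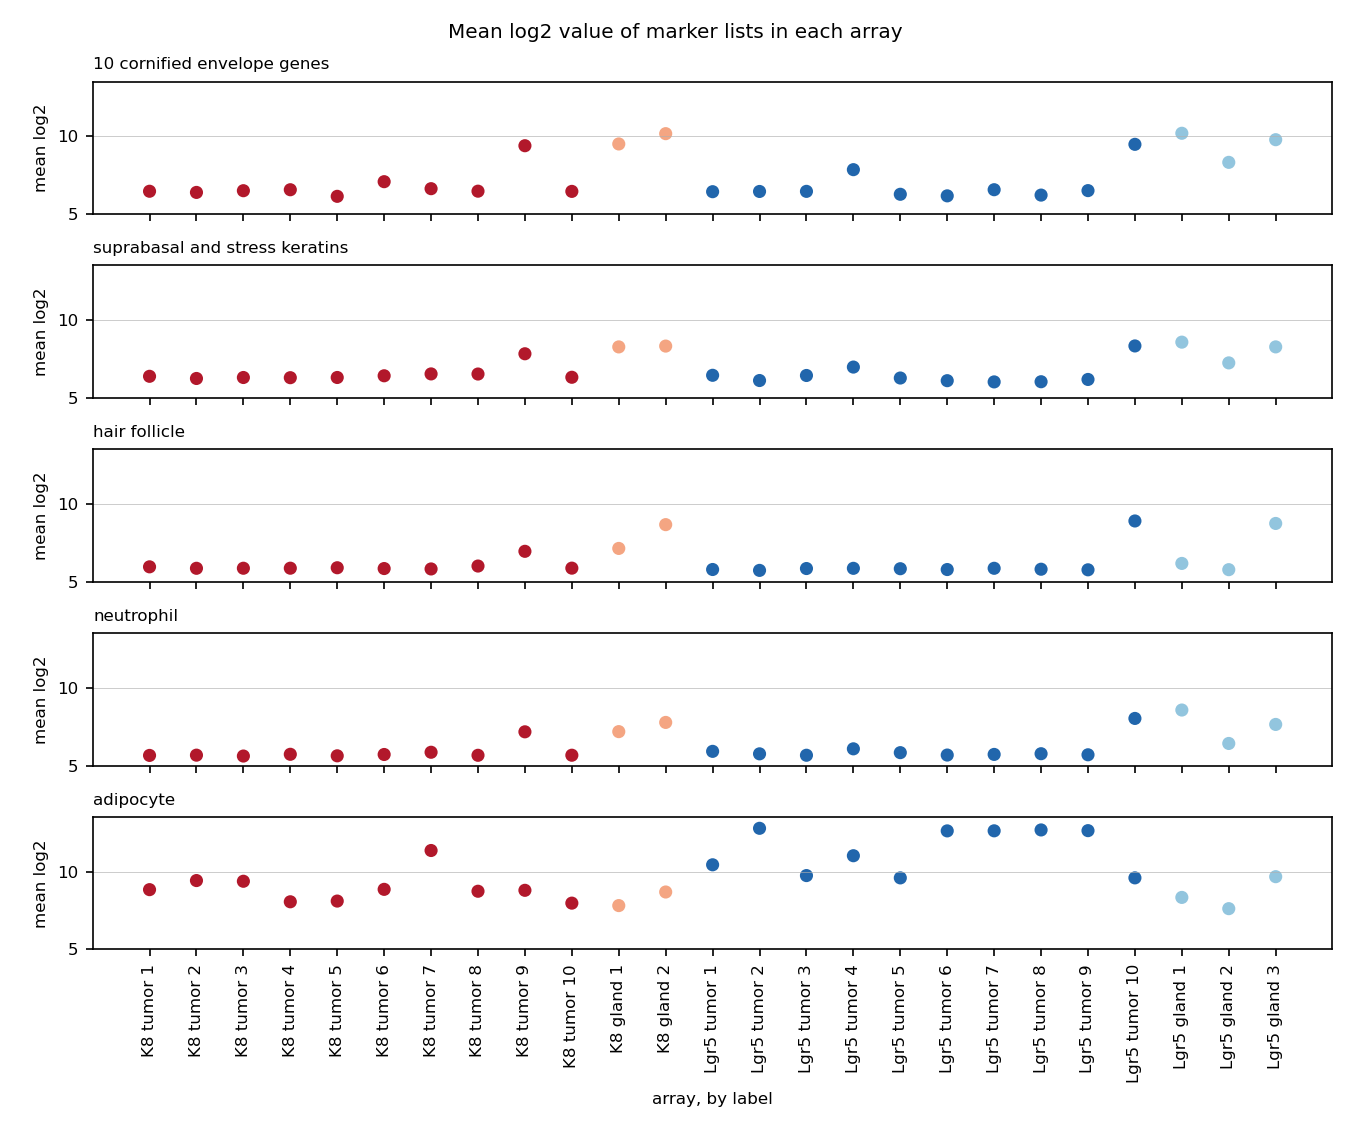
Mean log2 value of the 10 cornified envelope genes and of 4 marker lists (1 panel a list) in each of the 25 arrays, in label order and coloured by group (red K8 tumors, orange K8 glands, dark blue Lgr5 tumors, light blue Lgr5 glands). The cornified envelope, suprabasal keratin and neutrophil panels are high in the glands, K8 tumor 9 and Lgr5 tumor 10, the hair follicle panel is low in Lgr5 glands 1 and 2, and the adipocyte panel is highest in Lgr5 tumors 2, 6, 7, 8 and 9.

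Tumors outside the 2 high arrays differed in part of the programme. In Lgr5 tumor 4, Sprr1a was 11.98, Crct1 10.00 and Krtdap 9.77, each within the range of the glands, for Sprr1a and Crct1 only through Lgr5 gland 2. Sprr4 was 11.10, Ivl 8.62 and Dmkn 7.91 there, whereas Sprr1b was 6.28, Lce1a1 5.73 and Lce1c 5.81. In K8 tumor 6, Crct1 was 8.24, Krtdap 7.71 and Sprr4 9.06, whereas Sprr1b was 5.82, Lce1a1 5.39 and Ivl 6.38. The Sprr4 value of Lgr5 tumor 4 lay within the range of the glands, which ran from 6.52 to 11.38. The hair gene Krt71 was 5.95 in Lgr5 tumor 4 and 6.27 in K8 tumor 6. Of the sebaceous gland list, Awat1 and Awat2, picked after their values were seen, were high in both. Awat1, a wax synthase of sebaceous glands, was 8.00 in Lgr5 tumor 4 and 8.56 in K8 tumor 6, against 7.04 in Lgr5 tumor 5 and at most 5.53 in the other 22 arrays. The related Awat2 was 6.31 in Lgr5 tumor 4 and 6.60 in K8 tumor 6, against at most 5.78 elsewhere. The mean of the 6 sebaceous genes was 7.93 in Lgr5 tumor 4 and 7.98 in K8 tumor 6, the highest K8 tumor. Lgr5 tumors 6, 7 and 8 had 8.31, 8.02 and 8.19 with Awat1 at most 5.53, so the list mean did not follow Awat1. The part of sebaceous tissue in the member values of these 2 tumors was not tested.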

How the data were processed

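Total RNA from Trizol extracts of mammary tumors and glands was amplified from a 100 ng input and hybridised to Affymetrix whole-transcript arrays, per the labels' protocols. The values are the deposited log2 table of 25 arrays by 34760 probe sets, a scale read from its range of 4.13 to 13.9 since the labels do not state the base. Per the submitters' processing notes the affy package was used. Not given in the sources used here are its version, the background correction and how probes were summarized.

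Gene names came from the platform's annotation table (21640 probe sets with 1 symbol, 1321 with several, 11799 unlisted), and for 954 genes with several probe sets the one with the highest mean was kept, giving 19937 genes. With limma 3.58.1 (R 4.3.3), 4 group means were fitted to all 25 arrays by lmFit and eBayes, with Benjamini-Hochberg adjustment over all genes and a threshold of 0.05. The fitting script was tested on simulated data. No 2 arrays held the same values (highest correlation 0.995).

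Members and lists were chosen with earlier results of these data known. Named genes are the 10 members, up to 4 genes of each cornification list with the smallest adjusted p, every gene of a count of 5 or fewer, the 10 genes most correlated with the mean of the members, and defining markers. Sprr4, Awat1, Awat2, the neighbours of members, marker genes named beside small counts, genes named for group means below the array medians, and the values of Lgr5 gland 2 and of Hrnr in Lgr5 tumors were chosen after they were seen. Promoters came from RefSeq (GRCm38.p6), and Biopython 1.88 aligned them. The array annotation's genome build is not given. Alternatives were another probe set rule, quantile normalization, a filter on dim probe sets, array weights, other eBayes settings, fewer groups, a replicate block and left-out arrays.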

Additional observations from a re-analysis of the deposited data

Results flagged for a closer look

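In each tumor group of 10 arrays, the highest and the lowest array of each member was checked against Dixon's 95% critical value of 0.466 for its gap to the next array. Of 20 groups checked (10 members in 2 tumor groups), 13 had an array standing apart, all on the high side. The check flags about 1 in 20 groups by chance, but the members were listed with these values in view, so the 13 is a description and is not set against that rate.

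K8 tumor 9 stood apart as the highest K8 tumor for 7 members, with log2 values of 8.43 for Sprr1b, 12.4 for Crct1, 8.11 for Lce1a1, 7.31 for Lce1c, 10.3 for Krtdap, 10.4 for Sbsn and 9.73 for Tgm1. Lgr5 tumor 10 stood apart as the highest Lgr5 tumor for 6 members, with 10.2 for Sprr1b, 5.82 for Sprr3, 8.32 for Lce1a1, 8.21 for Lce1c, 9.63 for Sbsn and 9.92 for Tgm1. The members vary together, so these are 2 arrays rather than 13 separate events. In both arrays the suprabasal keratin, hair follicle and neutrophil means were also the highest of their group.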

How the results depend on the processing

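Counts of members called moved from 8 for Lgr5 tumors against glands to 3 with only those groups in the fit and to 0 without the 5 Lgr5 tumors with high adipocyte genes, and ranged from 1 to 8 with 1 array left out. For K8 tumors against glands the 7 became 4 with the replicate block and ranged from 0 to 7 with 1 array left out. It was 4 without any 1 of K8 tumors 1, 2, 3, 5, 8 and 10. Between tumors 1 member (Cdsn) was called with array weights, against 0. Other settings kept the member counts within 1.5 times, quantile normalization among them, and the dim filter dropped Sprr3 and kept 9 members. Of the 76 other cornification genes, the 39 called in Lgr5 became 68 under array weights and 61 when K8 tumor 9 and Lgr5 tumor 10 were left out. They became 24 with the replicate block, 4 when other groups were kept out of the fit and 0 without the 5 Lgr5 tumors with high adipocyte genes, and ranged from 2 to 59 with 1 array left out. The 43 called in K8 ranged from 2 to 52. The 6 called between tumors became 16 under array weights, 3 when other groups were kept out, and 0 without the 5 Lgr5 tumors or without all 7 arrays, and ranged from 1 to 12. In the gland and contrast comparisons the counts stayed at 0, from 0 to 0 with 1 array left out. The share of all genes called by limma moved too. For Lgr5 it was 15.9%, then 27% with K8 tumor 9 and Lgr5 tumor 10 dropped. It was 0.00502% once the 5 Lgr5 tumors were dropped, 1.26% lacking Lgr5 gland 1 and 25% lacking Lgr5 tumor 10. Between tumors the share was 21.3%, and 0% once those 5 or all 7 arrays were dropped. Shares for other settings were not set beside these counts, so the shifts are not read as particular to these genes.

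Signs were followed for all members against the glands, for Sprr1a and Cdsn between tumors, and for Krtdap and Lce1c between glands. Other members between tumors or between glands are not listed here, and their signs may turn as well. Some followed signs turned, all of differences that did not pass. Sprr1a between tumors was -0.37 without the 5 Lgr5 tumors and -0.12 without all 7 arrays. Krtdap between glands ranged from -1.58 (without K8 gland 2) to 0.26 (without K8 gland 1). Sprr3 in Lgr5 tumors was 0.0153 without Lgr5 gland 1. Of 250 member differences with 1 array left out, 209 kept direction and call in K8 and 230 in Lgr5. Many of these fits left out an array of the other line, which cannot change the difference, only its spread and call. The counts are therefore not a measure of stability. Labelled replicate numbers were not used as pairs in the main fit. Same-numbered deviations correlated between -0.15 and 0.51 (K8 and Lgr5 tumors), -0.37 and -0.04 (Lgr5 tumors and glands) and -0.01 and 0.02 (K8 tumors and glands). Arrays of different numbers were not set beside them, and the glands are few, so these values cannot exclude a pairing. The causes of these shifts were not tested, beyond the smaller number of arrays in fits that leave some out.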

Other observations

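Cdsn, whose values followed the other members least, was set against all genes after its values were seen. The genes with the highest Pearson's r with Cdsn over the 25 arrays were the amino acid transporter gene Slc7a8 (0.856, and 0.817 within the 18 tumors outside K8 tumor 9 and Lgr5 tumor 10) and Klf6, a zinc-finger factor (0.844 and 0.825). These are descriptions across arrays that share groups and tissue makeup.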
